A study of Rattus norvegicus with 15 samples.

Results

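The genes described here encode 7 enzymes of cholesterol synthesis, Hmgcs1, Idi1, Fdft1, Sqle, Lss, Cyp51 and Dhcr7, in the brains of rats given vagus nerve stimulation (VNS) or a sham device. They were chosen by name: each gene symbol was matched through a RefSeq gene table to the transcript records of the count tables. All 7 were found, with 1 record each, among 18278 records. The working name of the set also speaks of uptake, but no member takes up cholesterol, so uptake genes are given as a separate list. The VNS rats were stimulated through an implanted device for 30 min on each of 4 days, and the control rats carried a sham device. Brains were taken directly after the stimulation of day 4. The hippocampal libraries (4 VNS, 3 control) came from rats that also did a novelty preference task for 10 min on days 2 to 4, and the cortical libraries (4 VNS, 4 control) complete the 15. An implanted device and, in hippocampus, the task are therefore shared by both groups, and the labels used here give no strain or age. The labels do not say which libraries share an animal, cage or day, so the p-values measure the spread between these libraries.

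Brain cholesterol is made almost wholly inside the brain, because plasma lipoproteins do not cross the blood-brain barrier. Acetyl-CoA is built into mevalonate and isoprenoid units, these are joined into squalene, and squalene is oxidised, closed into lanosterol and trimmed to cholesterol. The transcription factor SREBP-2 switches these genes on together when sterols in the endoplasmic reticulum run low. Oligodendrocytes use much of the product for myelin, and astrocytes export part of it to neurons on lipoproteins.

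In hippocampus none of the 7 genes passed the test between VNS and control rats at an adjusted p of 0.05, where 0% of the 12728 records tested passed. 5 genes were on the higher side in VNS libraries and 2 on the lower side, with log2 fold changes between -0.14 for Fdft1 and 0.39 for Dhcr7. In cortex none of the 4 genes with enough reads passed, where 0.0257% of 3884 records passed. Dhcr7, the reductase that makes cholesterol from 7-dehydrocholesterol, was the only member whose hippocampal groups did not overlap. The same was so for 9.28% of all records tested in hippocampus.

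Promoter sequence was found for 5 of the 7 members in a RefSeq promoter table of assembly GRCr8 (Hmgcs1, Idi1, Lss, Cyp51 and Dhcr7). The 250 bases before each start site were searched on both strands for the sterol regulatory element TCACCCCAC and its looser form TCACNCCAC, for CCAAT, the letters bound by NF-Y, and for GGGCGG, the letters bound by Sp1. The sterol element was found in 0 of 5 member promoters in either form, and in 0.409% and 0.974% of all 33469 promoters. CCAAT was in 3 of 5 (Hmgcs1, Idi1 and Lss) and in 34.0% of all promoters, and GGGCGG was in 4 of 5, all but Idi1, and in 30.5% of all promoters. Of 11 other synthesis genes with a promoter in the table, 10 held CCAAT and 10 held GGGCGG. A match describes letters in this window and no match says nothing of the factor. The promoters of 3 members are given because Hmgcs1 had the highest hippocampal level per length, Idi1 the lowest, and Dhcr7 the largest difference between the groups. They lie at chr2:53382054-53382303 on the plus strand (Hmgcs1), chr17:66547525-66547774 on the minus strand (Idi1) and chr1:208444184-208444433 on the plus strand (Dhcr7). Each reads 5′ to 3′ on the gene's strand and ends at the base before the start site, and capitals mark CCAAT or GGGCGG on either strand.
Hmgcs1: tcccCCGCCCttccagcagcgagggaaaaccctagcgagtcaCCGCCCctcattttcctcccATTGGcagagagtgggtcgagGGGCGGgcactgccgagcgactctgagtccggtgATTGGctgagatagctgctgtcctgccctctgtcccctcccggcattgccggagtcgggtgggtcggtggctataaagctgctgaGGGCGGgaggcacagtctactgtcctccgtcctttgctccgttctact
Idi1: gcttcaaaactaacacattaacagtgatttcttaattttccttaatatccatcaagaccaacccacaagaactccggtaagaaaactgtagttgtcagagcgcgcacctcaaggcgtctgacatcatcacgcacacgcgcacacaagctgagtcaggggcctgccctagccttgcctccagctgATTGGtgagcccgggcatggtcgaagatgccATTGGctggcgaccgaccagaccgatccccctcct
Dhcr7: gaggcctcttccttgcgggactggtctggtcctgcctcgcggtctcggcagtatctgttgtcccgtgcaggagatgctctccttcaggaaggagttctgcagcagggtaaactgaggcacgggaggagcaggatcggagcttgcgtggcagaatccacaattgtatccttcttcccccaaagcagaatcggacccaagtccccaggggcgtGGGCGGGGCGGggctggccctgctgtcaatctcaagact
Hmgcs1 carried 2 CCAAT and 4 GGGCGG matches, and Idi1 2 CCAAT matches within the 66 bases before its start. The 2 GGGCGG matches of Dhcr7 share a base and lie 39 and 34 bases before its start.

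Hippocampal libraries held 16728486 to 51463555 counts and cortical libraries 329130 to 435296. Levels are counts scaled to a common library size with TMM (CPM), and levels of different genes are compared per kilobase of record as well (RPKM). Cortical reads were counted on the strand of each record, while stranded TruSeq kits commonly read the opposite strand, so cortical values may be of the antisense strand, which was not tested. The hippocampal libraries differed in ways that touch every comparison below. Ribosomal RNA records took 9.34% to 73.1% of the counts of VNS libraries and 7.11% to 19.3% of those of control libraries. VNS library 3 was the extreme, with 4301901 counts left outside ribosomal and 7SL RNA records. The labelled tissue was checked against 10 forebrain excitatory neuron markers. Their summed level was 3563 to 5594 CPM in the 4 VNS libraries, against 729, 292 and 4259 CPM in control libraries 1, 2 and 3. Control library 2 held 4.09 CPM of Slc17a7, the vesicular glutamate transporter of hippocampal and cortical neurons, against 1006 to 1540 CPM in VNS libraries, 237 CPM in control library 1 and 1103 CPM in control library 3. Conversely, 7 markers of thalamus and brainstem summed to 23.3 to 151 CPM in VNS libraries and to 1258, 516 and 58.8 CPM in control libraries 1, 2 and 3. Among VNS libraries, library 2 held the 151 CPM, against at most 67.9 CPM in the others, and had the lowest forebrain sum. Tnnt1, a further thalamic marker with 4 records, was at 0. Control libraries 1 and 2 therefore stand apart from the other 5 and go against their tissue label, and results are also given without them. With them left out, a single control library remains, which is assumed to vary like the VNS libraries.

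Hmgcs1, the synthase that forms hydroxymethylglutaryl-CoA early in the pathway, opens the set (rn5 chromosome 2, 70791263 to 70809191, plus strand, 11 exons). Its hippocampal level was 306, 287, 257 and 252 CPM in VNS libraries 1 to 4, against 169, 288 and 279 CPM in control libraries 1 to 3. The VNS range lay inside the control range apart from its highest library, and control library 1 was far below the other 6. The means were 275 ± 25.4 CPM in VNS and 245 ± 66.3 CPM in control rats (SD, n = 4 and n = 3). The log2 fold change of 0.17 (SE 0.21, 95% interval -0.30 to 0.64) did not pass edgeR's quasi-likelihood test (adjusted p = 0.71).

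Idi1 turns isopentenyl diphosphate into its isomer, the starter of isoprenoid chains (chromosome 17, 59781714 to 59789305, minus strand, 5 exons). It had 23.9, 20.2, 29.7 and 16.6 CPM in VNS libraries, against 14.2, 25.1 and 21.9 CPM in control libraries. The groups were interleaved, and the spread within each exceeded the gap between their means of 22.6 ± 5.59 CPM in VNS and 20.4 ± 5.65 CPM in control rats. The log2 fold change was 0.14 (SE 0.25, 95% interval -0.45 to 0.72, edgeR adjusted p = 0.82). Of the members' records only that of Idi1 shares exonic bases with a record on the opposite strand, 100 bases with Wdr37, which averaged 80.7 CPM in hippocampus. Hippocampal counting took no account of strand, and reads that fall in several records were left out. Reads in those bases may therefore be missing from the count of Idi1.

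Fdft1, squalene synthase, commits isoprenoid chains to sterols (chromosome 15, 50104042 to 50132096, minus strand, 8 exons). Its level was 88.9, 70.1, 47.6 and 72.7 CPM in VNS libraries, against 57.1, 102 and 72.9 CPM in control libraries. The lowest library was VNS 3 and the highest control 2, and the groups overlapped. The VNS 3 value rests on 234 reads, with an exact 95% Poisson interval of 41.7 to 54.1 CPM that covers counting error only. The means were 69.8 ± 17.0 CPM in VNS and 77.2 ± 22.6 CPM in control rats, and the log2 fold change was -0.14 (SE 0.25, 95% interval -0.72 to 0.44, edgeR adjusted p = 0.81).

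Sqle, squalene epoxidase, oxidises squalene ahead of ring closure and is a known control point of the pathway (chromosome 7, 100197094 to 100211968, plus strand, 11 exons). Hippocampal libraries held 61.7, 52.6, 55.3 and 49.1 CPM after VNS, against 34.8, 49.2 and 52.9 CPM in control rats. Control library 1 was again the lowest, and the other 2 control libraries fell within the VNS range. The means were 54.7 ± 5.32 CPM in VNS and 45.6 ± 9.54 CPM in control rats, and the log2 fold change was 0.26 (SE 0.17, 95% interval -0.13 to 0.65, edgeR adjusted p = 0.49).

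Lss, lanosterol synthase, closes the epoxide into the first sterol (chromosome 20, 15001934 to 15027537, minus strand, 20 exons). It was the steadiest member, with 32.2, 31.8, 24.6 and 27.6 CPM in VNS libraries, against 26.9, 31.5 and 31.7 CPM in control libraries. The highest library exceeded the lowest 1.31-fold. The log2 fold change was -0.04 (SE 0.14, 95% interval -0.37 to 0.28, edgeR adjusted p = 0.91).

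Cyp51 is the cytochrome P450 that removes a methyl group from lanosterol (chromosome 4, 27078790 to 27097242, plus strand, 10 exons). It had 89.6, 81.1, 91.9 and 82.7 CPM in VNS libraries, against 59.9, 90.9 and 84.6 CPM in control libraries. All libraries but control 1 lay between 81.1 and 91.9 CPM. The means were 86.3 ± 5.24 CPM in VNS and 78.5 ± 16.4 CPM in control rats, and the log2 fold change was 0.14 (SE 0.16, 95% interval -0.24 to 0.51, edgeR adjusted p = 0.71).

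Dhcr7 closes the pathway in the branch through 7-dehydrocholesterol (chromosome 1, 223874935 to 223890913, plus strand, 9 exons). Its level was 26.7, 24.6, 28.9 and 25.1 CPM in VNS libraries, against 14.9, 21.7 and 23.3 CPM in control libraries. Each VNS library was above each control library, though VNS library 2 (24.6 CPM) and control library 3 (23.3 CPM) were close. In all, 9.28% of the records tested in hippocampus had groups that did not overlap, and 4.67% had every VNS library above every control library, so 1 of 7 members is close to that background. The means were 26.3 ± 1.92 CPM in VNS and 20.0 ± 4.47 CPM in control rats. The log2 fold change was 0.39 (SE 0.18, 95% interval -0.01 to 0.80), with an unadjusted p of 0.054 and an adjusted p of 0.40 by edgeR. In the main test no member had an unadjusted p under 0.05, against 12.1% of all records tested.

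**Figure D1:**
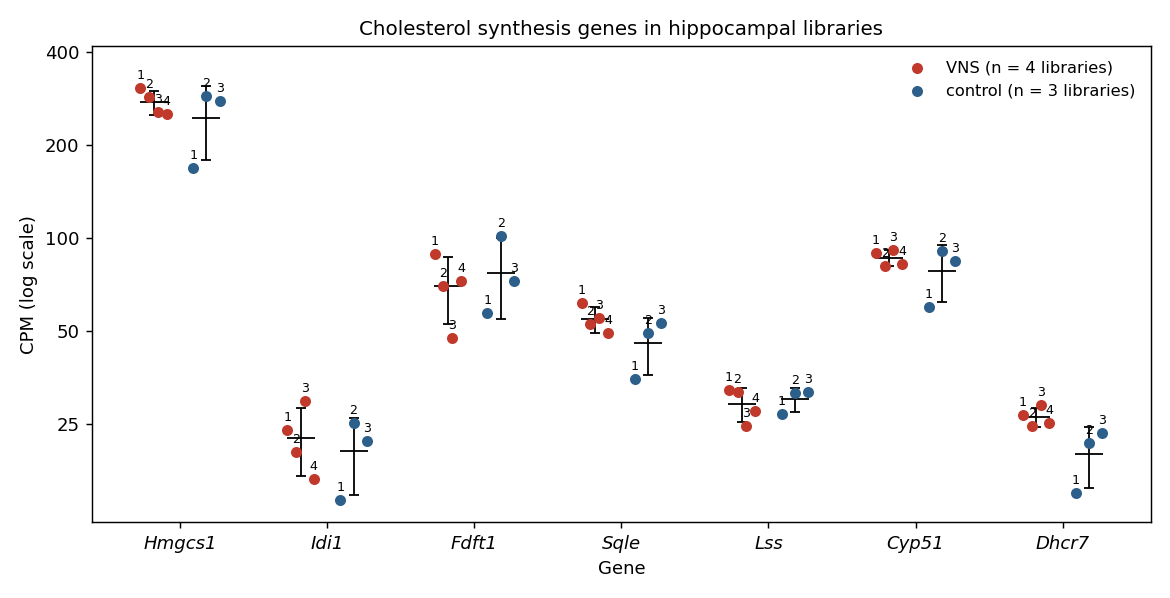
Level of each of the 7 genes in the hippocampal libraries, in CPM on a log axis. Points are libraries, numbered within their group; bars give the mean and SD (4 VNS, 3 control). Control library 1 is the lowest of 7 for Hmgcs1, Idi1, Sqle, Cyp51 and Dhcr7. Only the groups of Dhcr7 do not overlap, as is so for 9.28% of all records tested in hippocampus.

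Control library 1 was the lowest of the 7 hippocampal libraries for 5 members, all but Fdft1 and Lss, and its summed level of 377 CPM over the 7 genes compares with 526 to 629 CPM in VNS libraries and with 608 and 566 CPM in control libraries 2 and 3. The deviation of each gene from its own mean over the 7 hippocampal libraries was averaged over the 7 genes. In control library 1 it was -0.46 on the log2 scale, against -0.05 to 0.21 in VNS libraries and 0.15 and 0.06 in the other control libraries. Without control library 1, 2 members were higher and 5 lower in VNS rats, and their median log2 fold change was -0.04, against 0.14 with all 7 libraries. In that fit the log2 fold change of Dhcr7 was 0.22 and that of Sqle 0.10, while those of Hmgcs1 (-0.04), Idi1 (-0.07) and Cyp51 (-0.03) were on the lower side. Without control libraries 1 and 2 together, the median was 0.01, and Dhcr7 had 0.16 (SE 0.20), Sqle 0.04 (SE 0.20) and Hmgcs1 -0.03 (SE 0.21). Leaving out VNS library 3, the one richest in ribosomal RNA, gave 6 members higher and 1 lower, with a median of 0.11. Over all records tested in hippocampus, 49.2% were higher in VNS rats and the median log2 fold change was -0.01.

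**Figure D2:**
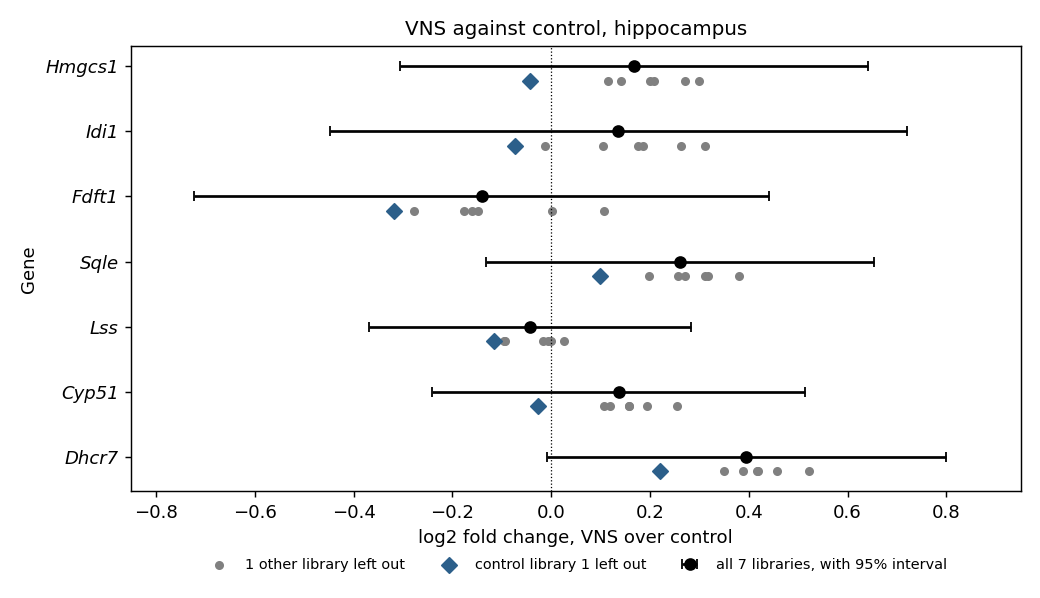
Log2 fold change of each gene between VNS and control hippocampus. Black points with bars are the estimates from all 7 libraries with 95% intervals, and smaller marks below them are the estimates with 1 library left out. All 7 intervals include 0, and leaving out control library 1 (diamonds) gives the lowest estimate of each gene, between -0.32 and 0.22.

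Oligodendrocyte markers stood on the lower side in VNS hippocampus. All 14 were lower in VNS libraries by log2 fold change, with a median of -0.73, though none passed the adjusted threshold and 6 had an unadjusted p under 0.05, against 12.1% of all records. Without control libraries 1 and 2, 13 of 14 were lower, with a median of -0.28, and 0 had such a p. Their summed level was 2341 to 5573 CPM in VNS libraries and 4829 to 8593 CPM in control libraries, and control library 3 (4829 CPM) lay inside the VNS range. Among them Cnp, an enzyme of myelin, averaged 379 CPM in VNS and 620 CPM in control rats. Among 8 tested astrocyte markers, 3 were higher and 5 lower in VNS libraries, with a median of -0.28. Of these 8, 3 had an unadjusted p under 0.05 by edgeR, against 12.1% of all records, and none passed the adjusted threshold. Without control libraries 1 and 2, 4 were higher and 4 lower, with a median of 0.0059. The summed levels overlapped (3179 to 3722 CPM in VNS, 3234 to 3501 CPM in control). Aqp4 (5 records) and Slc1a3 (4 records) were at 0, as reads in several records of one gene were left out. Control library 1, the lowest for most synthesis genes, was the highest for oligodendrocyte markers (8593 CPM) and for thalamus and brainstem markers (1258 CPM). The part of these markers in the members' values was not tested. In bulk tissue, fewer cells of a type and less RNA per cell cannot be told apart.

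**Figure D3:**
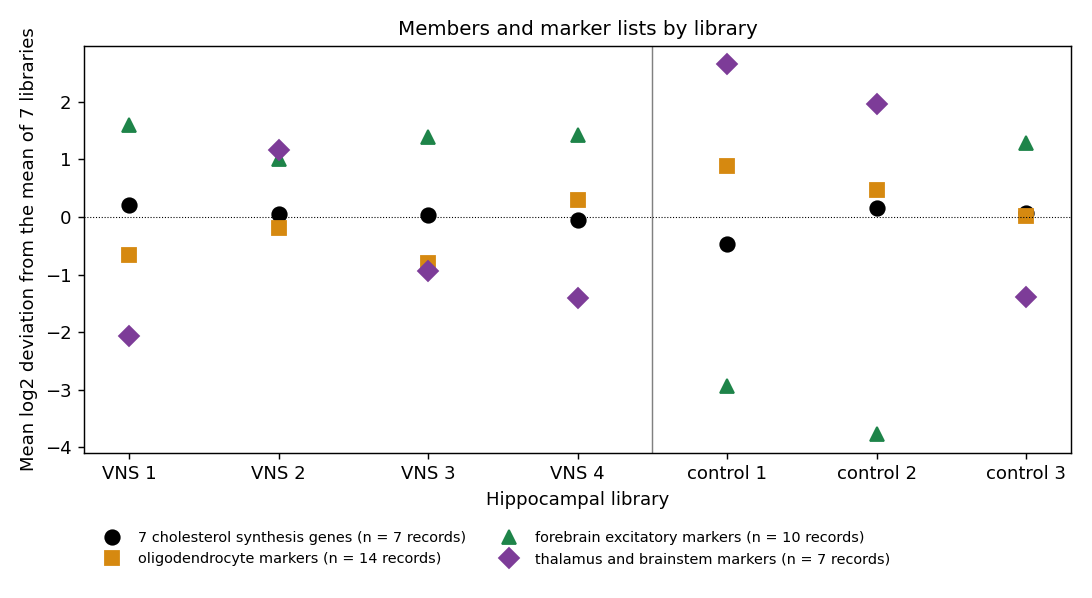
Mean log2 deviation of 4 gene lists from their own mean over the 7 hippocampal libraries, VNS libraries left of the line and control libraries right of it. The 7 synthesis genes stay between -0.46 and 0.21, while forebrain excitatory markers reach -2.93 and -3.77 in control libraries 1 and 2. Thalamus and brainstem markers reach 2.65 in control library 1, 1.96 in control library 2 and 1.17 in VNS library 2.

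Between libraries the synthesis genes varied about as much as other records. The SD of their log2 level over the 7 hippocampal libraries had a median of 0.29 and quartiles of 0.24 and 0.34, against 0.34, 0.21 and 0.60 over all records tested. Fdft1 had the widest range, with a 2.14-fold gap between its highest and lowest library. Per length, their order in hippocampus was Hmgcs1 (80.2 ± 13.8 RPKM), Cyp51 (27.5 ± 3.64), Sqle (24.7 ± 4.00), Fdft1 (23.1 ± 5.75), Lss (10.8 ± 1.11), Dhcr7 (8.63 ± 1.63) and Idi1 (7.70 ± 1.87 RPKM; SD over 7 libraries). Neighbours in that order were compared within libraries by an exact two-sided sign-flip permutation test, with p adjusted over the 6 pairs and a smallest raw p of 0.0156. The order was set from these same values, so the p-values describe how steady it was across libraries and give it no independent support. Hmgcs1 exceeded Cyp51, and Fdft1 exceeded Lss, in 7 of 7 libraries (exact adjusted p = 0.0469 each). Both pairs were at the smallest raw p, and their adjusted p rests on sharing it. The other 4 pairs did not pass. Cyp51 was above Sqle and Lss above Dhcr7 in 6 of 7 libraries (exact adjusted p = 0.0625 and 0.0703), Dhcr7 was above Idi1 in 6 of 7 (0.131), and Sqle was above Fdft1 in 5 of 7 (0.531).

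The median profile of the members over the 7 hippocampal libraries was 0.19, 0.06, 0.13 and -0.04 in VNS libraries 1 to 4 and -0.53, 0.14 and 0.05 in control libraries 1 to 3, as log2 deviations. The records nearest to it, outside the pathway lists and among 7970 records that varied at least as much, were Tvp23a, Alcam, Sync, Metap1 and Slitrk1. Their root mean square distance from the profile was 0.08 to 0.10 on the log2 scale, against a median of 0.51 over the 7970 records. They were picked for the smallest distance, so lying below that median follows from the choice. Alcam and Slitrk1 encode cell adhesion proteins and Metap1 a methionine aminopeptidase. The likeness covers 7 libraries, and control 1 holds the largest deviation of the profile.

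The other enzymes of the pathway lay on both sides of 0. Of 12 further synthesis genes tested in hippocampus, 5 were higher and 7 lower in VNS rats, with a median log2 fold change of -0.06. None of the 12 passed the adjusted threshold, and 1 had an unadjusted p under 0.05, against 12.1% of all records. Without control libraries 1 and 2 they were 7 higher and 5 lower, with a median of 0.01. The gene with that p was Mvk, mevalonate kinase, with a mean of 17.0 CPM in VNS and 23.3 CPM in control rats and a log2 fold change of -0.45 (SE 0.16, edgeR adjusted p = 0.40). Its groups overlapped slightly, at 15.4 to 20.1 CPM in VNS and 20.0 to 26.7 CPM in control libraries. Nsdhl, a sterol dehydrogenase of the late steps, averaged 20.0 CPM in VNS and 15.4 CPM in control rats (log2 fold change 0.37, SE 0.17). Hsd17b7, the ketosteroid reductase that follows it, averaged 4.15 CPM in VNS and 2.68 CPM in control rats (0.62, SE 0.34). Without control libraries 1 and 2, Mvk had -0.24 (SE 0.23), Nsdhl 0.38 (SE 0.25) and Hsd17b7 0.22 (SE 0.44), and Hsd17b7 had 0.39 without control library 2 alone and 0.40 without VNS library 2. With the members, 10 of 19 synthesis genes were on the higher side.

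Of 7 genes that govern SREBP, 2 were higher and 5 lower, with a median of -0.03, and none had an unadjusted p under 0.05. Srebf2, which encodes SREBP-2, averaged 422 CPM in VNS and 318 CPM in control rats (log2 fold change 0.41, SE 0.23), and its value was 0.19 without control library 1, 0.66 without control library 3 and -0.0023 without control libraries 1 and 2. Insig1 and Insig2 encode the anchors that hold SREBP in the endoplasmic reticulum when sterols are plentiful. Insig1 averaged 52.6 CPM in VNS and 65.9 CPM in control rats (-0.32, SE 0.16), with -0.15 without control library 2 and -0.20 without control libraries 1 and 2. Insig2 averaged 13.7 CPM in VNS and 16.7 CPM in control rats (-0.26, SE 0.25), with -0.0841 without VNS library 3 and -0.16 without control libraries 1 and 2. Srebf1 has 2 records, and reads that fall in both were left out of the counts.

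Of 9 uptake and transport genes, 2 were higher and 7 lower, with a median of -0.22, and 2 had an unadjusted p under 0.05, against 12.1% of all records, but none passed the adjusted threshold. Of the same 9, 5 were higher and 4 lower without control libraries 1 and 2, with a median of 0.03. Scarb1, the receptor for high-density lipoprotein, was on the higher side (19.9 to 22.1 CPM in VNS and 14.9 to 18.99 CPM in control libraries, log2 fold change 0.37, SE 0.14). Its groups did not overlap, as was so for 9.28% of records tested, but it had 0.16 (SE 0.21) without control libraries 1 and 2. Npc1, which exports cholesterol from late endosomes, averaged 72.4 CPM in VNS and 112.9 CPM in control rats (-0.64, SE 0.24), with -0.31 (SE 0.31) without control libraries 1 and 2, and its record overlaps another on the opposite strand. Lipa, the lysosomal acid lipase that frees cholesterol from its esters, averaged 36.4 ± 2.31 CPM in VNS and 51.8 ± 21.7 CPM in control rats (-0.51, SE 0.25), but had -0.13 without control library 1 and 0.07 without control libraries 1 and 2.

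Among 10 tested genes of efflux and turnover, 3 were higher and 7 lower, with a median of -0.25, and 1 had an unadjusted p under 0.05, against 12.1% of all records. That gene was Nr1h3, the sterol-sensing liver X receptor alpha, at 0.813 to 1.51 CPM in VNS and 1.96 to 2.81 CPM in control libraries (log2 fold change -0.87, SE 0.31). Its groups did not overlap, as was so for 9.28% of records tested, and it had -0.70 without control libraries 1 and 2. Ch25h, a cholesterol hydroxylase, averaged 1.35 CPM in VNS and 2.39 CPM in control rats (-0.77, SE 0.36), with -0.91 without control libraries 1 and 2. Lcat, which esterifies lipoprotein cholesterol, averaged 7.18 CPM in VNS and 15.3 CPM in control rats (-1.09, SE 0.53), but had -0.18 without control library 2 and 0.11 without control libraries 1 and 2. Without those libraries the list had 4 higher and 6 lower, with a median of -0.10. Of 10 fatty acid synthesis genes under SREBP control, 4 were higher and 6 lower, with a median of -0.14, and 2 had an unadjusted p under 0.05, against 12.1% of all records. Without control libraries 1 and 2 their median was -0.03. Scd2, a stearoyl-CoA desaturase, held 3026 to 3571 CPM in VNS and 3967 to 5255 CPM in control libraries (-0.49, SE 0.21). Its groups did not overlap, as was so for 9.28% of records tested, and it had -0.25 without control libraries 1 and 2. Elovl6, a fatty acid elongase, averaged 30.3 CPM in VNS and 38.2 CPM in control rats (-0.33, SE 0.14). Acaca, acetyl-CoA carboxylase, averaged 124 CPM in VNS and 147 CPM in control rats (-0.24, SE 0.15). Elovl6 had -0.13 (SE 0.21) and Acaca -0.14 (SE 0.22) without control libraries 1 and 2, and Acaca had -0.16 without VNS library 3.

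**Figure D4:**
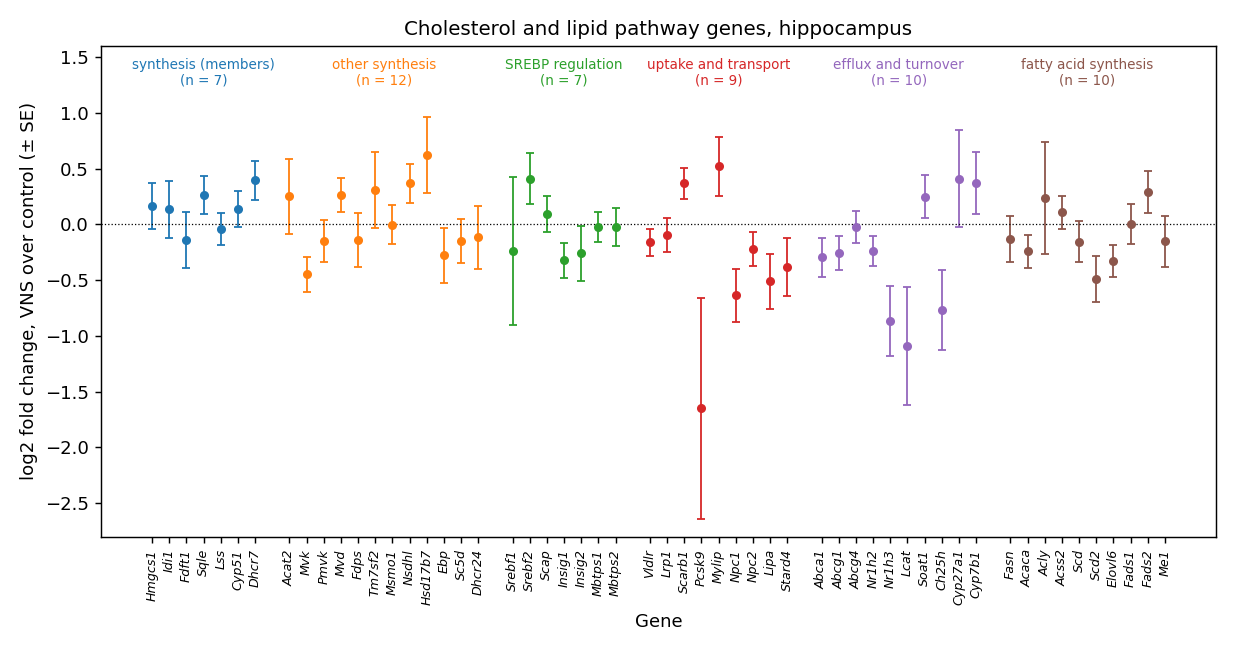
Log2 fold change, VNS over control hippocampus, of every tested gene of the 6 cholesterol and lipid lists, with bars for the standard error. Members run from -0.14 to 0.39 on both sides of 0, 7 of 9 uptake and transport genes lie below 0 (4 of 9 without control libraries 1 and 2), and none passed the adjusted threshold.

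Cortical libraries held far fewer counts than hippocampal ones, so their counts are given directly. Sqle had the most reads, with 208, 175, 152 and 201 in VNS libraries 1 to 4, against 130, 162, 148 and 219 in control libraries 1 to 4. Hmgcs1 had 72, 83, 80 and 107 reads in VNS libraries, against 109, 93, 52 and 90 in control libraries. The read counts of both genes in VNS libraries lay inside the control range, though scaled to library size Sqle in VNS library 1 (646 CPM) was just above the highest control library (638 CPM). Cyp51 had 30, 11, 11 and 16 reads in VNS libraries, against 18, 32, 26 and 16 in control libraries. Idi1 had 16, 5, 13 and 11 reads in VNS libraries, against 9, 21, 5 and 14 in control libraries. Both were spread widely within each group, and no tested member had groups that did not overlap, as 2.29% of cortical records did. The log2 fold changes were 0.15 for Sqle (SE 0.21), -0.03 for Hmgcs1 (SE 0.25), -0.42 for Cyp51 (SE 0.41) and -0.09 for Idi1 (SE 0.50), with edgeR adjusted p near 1 in each case. Thus 1 of 4 was on the higher side, as were 47.9% of cortical records. Their 95% intervals were -0.29 to 0.58 for Sqle, -0.55 to 0.48 for Hmgcs1, -1.28 to 0.44 for Cyp51 and -1.13 to 0.95 for Idi1. Without VNS library 1, Cyp51 had -0.89, with an unadjusted p of 0.0492 and an adjusted p of 0.999 by edgeR.

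Fdft1, Lss and Dhcr7 had too few cortical reads to be tested. Fdft1 had 5, 8, 3 and 9 reads in VNS libraries, against 17, 9, 7 and 13 in control libraries. Lss had 5, 2, 0 and 0 reads in VNS libraries, against 4, 5, 0 and 0 in control libraries. Dhcr7 had 0, 2, 0 and 0 reads in VNS libraries, against 3, 0, 2 and 4 in control libraries. The groups overlapped for each of these genes. A count of 0 allows up to 3.69 reads by the exact 95% Poisson interval, which covers counting error only.

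**Figure D5:**
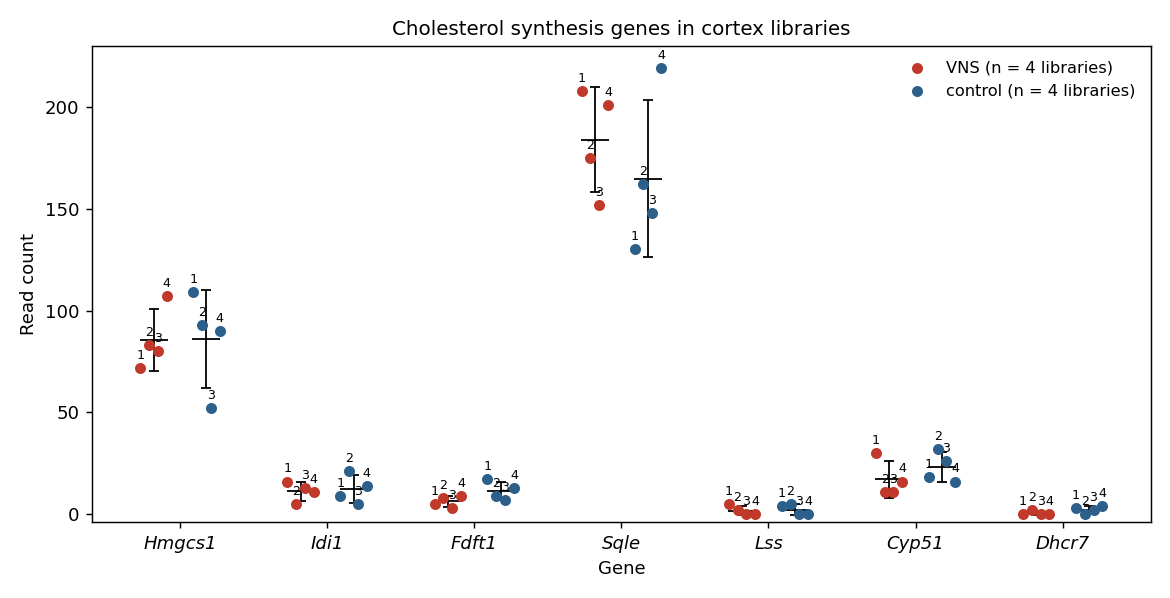
Read counts of the 7 genes in the cortical libraries. Points are libraries, numbered within their group; bars give the mean and SD (4 VNS, 4 control). Sqle lies between 130 and 219 reads and Hmgcs1 between 52 and 109, the other 5 genes have at most 32, and the groups overlap for each gene.

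The order of levels per length was not the same in the 2 tissues. Sqle was at 0.27 to 0.34 of the level of Hmgcs1 in the 7 hippocampal libraries, but at 1.89 to 4.59 times that level in the 8 cortical libraries. Mean levels in cortex were 246 RPKM for Sqle, 75.9 for Hmgcs1, 19.2 for Cyp51, 11.8 for Idi1, 8.28 for Fdft1, 2.12 for Lss and 1.55 for Dhcr7. The tissues were not compared by a test of levels, because cortical RNA was polyA-selected and counted with strand option 1 while hippocampal RNA was ribosome-depleted and counted without strand. Records that overlap another on the opposite strand, 3.79% of all, took 35.5% of cortical counts and 9.58% of hippocampal counts. The part of these differences in preparation and counting in the levels cannot be told apart from that of the tissue.

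The response to VNS was compared between tissues as the hippocampal log2 fold change minus the cortical one, in 1 fit over 15 libraries. That fit shares 1 estimate of spread per record between tissues that differ in depth, preparation and strand counting. The hippocampal SE of each member was larger in it than in hippocampus alone, such as 0.25 against 0.21 for Hmgcs1 and 0.41 against 0.14 for Lss. Cortical values may also be of the antisense strand, so the lack of a call says little here. None of the 7 members passed (0% of 7450 records did). The differences were 0.05 for Sqle, 0.14 for Hmgcs1, 0.17 for Idi1, 0.24 for Lss, 0.50 for Cyp51, 0.71 for Fdft1 and 2.52 for Dhcr7. The value of Dhcr7 (SE 1.19, edgeR adjusted p = 0.60) rests on the few cortical reads given above, and its 1 unadjusted p under 0.05 among 7 members compares with 8.12% of records tested. The difference of Cyp51 was 0.98 without cortical VNS library 1 and 0.28 without hippocampal control library 1, with no call in either case.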

How the data were processed

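RNA was measured by sequencing in 15 rat libraries. Per the labels, a stranded TruSeq kit with 100 bp paired-end reads was used, on polyA-selected RNA for cortex and ribosome-depleted RNA for hippocampus. The values are raw read counts per RefSeq transcript record that the authors deposited, made with featureCounts 1.4.6-p2 on rn5 per the file headers, with strand option 1 in cortex and none in hippocampus. The submitters' processing notes also name FastQC 0.10.1, Trimmomatic, Bowtie2, SAMtools 0.1.19 and edgeR. How the aligner was run is not stated there. Record lengths, given by the authors in the same tables, served for RPKM. 1 cortical column name has a letter added to its sample's description.

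A RefSeq table of GRCr8, used for names and promoters only, gave a symbol to 17339 records and none to 939. Coordinates of genes are those of the count tables (rn5). No pair of libraries agreed within sampling noise (smallest chi-square per degree of freedom 3.12 in cortex and 24.2 in hippocampus). Replicate numbers follow accession order and pair nothing.

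The tests used edgeR 4.0.16 under R 4.3.3: filterByExpr (minimum count 10, total 15), TMM scaling, glmQLFit and glmQLFTest within each tissue, two-sided, with Benjamini-Hochberg adjustment over all records tested. The difference between tissues was a contrast over all 4 groups. The procedure was also run on simulated counts with a common mean per record outside the records changed on purpose. These hold no libraries that go against their tissue label, so the run says nothing of that limit. Alternatives used DESeq2 1.42.0, limma 3.58.1 and sva 3.50.0.

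The members and gene lists were chosen with earlier results of these data known. Besides the members, the text names the 3 genes of each pathway list with the smallest p in hippocampus, 1 or both of the most abundant markers of a cell type list and the 5 records most like the members. Lbr, Lrp8, Cyp46a1, Tcf7l2 and Rora had no matched record here. Apoe (5 records), Srebf1 (2) and Acly (2) are undercounted. Of the remaining marker lists in hippocampus, microglia had 6 of 10 higher in VNS (median 0.05) and endothelial cells 2 of 10 (median -0.28). Forebrain neurons had 10 of 10 higher (median 1.34), thalamus and brainstem 0 of 7 (median -2.32), and astrocytes a median of -0.28. Without control libraries 1 and 2 these medians were -0.06, 0.02, 0.13, 0.60 and 0.0059. Named for abundance, whatever their change, were Csf1r (microglia), Slc16a1 and Cldn5 (endothelial cells) and Camk2a and Slc17a7 (forebrain neurons). So were Slc17a6 and Prkcd (thalamus and brainstem) and Gfap and S100b (astrocytes). None of these genes passed. A few genes of these lists are not reported here.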

Additional observations from a re-analysis of the deposited data

Results flagged for a closer look

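Among the groups of 4 libraries checked for a single library far from the rest (36 gene and group pairs), 1 stood out: Dhcr7 in cortex, where VNS library 2 had 5.95 CPM and the other 3 VNS libraries had 0. The gap equals the whole range of the group, against a critical ratio of 0.829, and the value rests on 2 reads. With the other 3 libraries at 0, any count above 0 gives this ratio, so the flag adds nothing beyond these counts.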

How the results depend on the processing

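No member passed the adjusted threshold in any setting tried. In hippocampus Dhcr7 had an unadjusted p of 0.0387 with 1 surrogate variable and 0.0244 without control library 3, both by edgeR. Under 0.05 were 2137 of 12728 records in the former and 3460 of 12931 in the latter. In the other hippocampal settings no member had such a p. The count of all records that passed in hippocampus was 0 in the main test, 17 with DESeq2, 291 with 1 surrogate variable and 0 to 1377 with 1 library left out (1377 without control 3). In cortex it was 1, with 5 without a filter, 6 with a filter of 1 CPM in 3 libraries, 0 with limma-voom, 2 with 1 surrogate variable and 0 to 4 with 1 library left out. For the difference between tissues it was 0, with 14 by DESeq2, 1 by limma-voom and 0 to 244 with 1 library left out (244 without hippocampal control 3). The causes were not tested.

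With 1 library left out, the median of the members in hippocampus ranged from -0.04 to 0.30, Hmgcs1 from -0.0418 to 0.30, Idi1 from -0.0736 to 0.31, Fdft1 from -0.32 to 0.11, Lss from -0.12 to 0.0255 and Cyp51 from -0.0256 to 0.26. Sqle (0.10 to 0.38) and Dhcr7 (0.22 to 0.52) kept their direction. In cortex Hmgcs1 ranged from -0.17 to 0.20 and Idi1 from -0.35 to 0.17, while Cyp51 (-0.89 to -0.23) and Sqle (0.0466 to 0.32) kept their direction. For the difference, Hmgcs1 ranged from -0.12 to 0.35, Idi1 from -0.0947 to 0.44, Sqle from -0.16 to 0.16, Lss from -0.36 to 1.69, Cyp51 from 0.28 to 0.98, Fdft1 from 0.38 to 0.95 and Dhcr7 from 2.11 to 10.46, the last without cortical VNS 2, where all VNS libraries are at 0.

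Without hippocampal controls 1 and 2, values changed sign for Hmgcs1 (-0.0265), Srebf2 (-0.0023), Lipa (0.0684) and Lcat (0.11), and in the difference for Hmgcs1 (-0.0307) and Sqle (-0.14). The cortical Hmgcs1 turned positive with limma-voom (0.0153), 1 surrogate variable (0.0001) and 1 fit over 15 libraries (0.0087). The difference turned negative for Sqle without a filter (-0.0104) and with 1 CPM in 3 libraries (-0.0096), and for Hmgcs1 (-0.0001) and Lss (-0.0877) with 1 surrogate variable. Of 77 values of members in hippocampus under settings other than leaving out 1 library, 76 kept their direction, but most of these settings reuse all hippocampal libraries. With 1 library left out, 41 of 49 values kept their direction and 8 reversed.

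No paired analysis was possible because the labels give the groups no shared replicate numbers. The cortical values of Fdft1, Lss and Dhcr7 rest on few reads, and the strand counted in cortex was not tested.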
